A study of Homo sapiens with 9 samples.

Results

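ETV1, ETV4 and ETV5 are the members of the PEA3 group of ETS transcription factors, and the 3 genes were taken by name from the 37351 genes of a count table of LNCaP cells treated with NRG1. LNCaP is an established human line from a metastatic prostate carcinoma. The cells were starved of serum and calcium for some hours, then given recombinant NRG1 at 15 ng/mL, which binds the receptor HER3, and total RNA was collected for mRNA sequencing at 0, 12 and 24 h. Each time had 3 libraries, labelled as biological replicates of 1 cell line plated in wells in triplicate, so p-values measure the spread between such wells. Cells without NRG1 at 12 or 24 h were not analysed here, and in every comparison with 0 h the effect of NRG1 and that of time in starvation medium cannot be told apart.

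ETS proteins share a DNA-binding domain that recognises a GGAA core. The PEA3 proteins are activated by MAP kinases, are degraded through the ubiquitin ligase COP1, and drive genes of migration and matrix remodelling during branching development and in carcinomas. Their own genes are among those kept silent by the repressor capicua (CIC), which is inactivated when ERK signaling is on. In LNCaP, as background, ETV1 is rearranged: the gene has been moved from chromosome 7 into the MIPOL1 locus on chromosome 14, next to FOXA1, a setting active in luminal prostate cells. The question was how the level and the response of this rearranged gene compared with those of its unrearranged paralogs.

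In the deposited coordinates (GRCh38, all on the minus strand), ETV1 (ENSG00000006468.14) lay at chromosome 7, 13891229 to 13991425, ETV4 (ENSG00000175832.13) at chromosome 17, 43527844 to 43579620, and ETV5 (ENSG00000244405.8) at chromosome 3, 186046314 to 186110318. Counts were summed per gene over these reference loci, so reads of a rearranged and an intact ETV1 allele were counted together. Among the start sites of ETV1 in the RefSeq promoter table (GRCh38.p14), which held 6 windows of 300 bases for ETV1, the most upstream one coincided with the end of the deposited gene. This window is shown because it was the only one of the 6 with a capicua octamer, here searched on both strands as TGAATGAA, TGAATGGA, TCAATGAA or TCAATGGA. The DUSP6 window is shown beside it because DUSP6, a phosphatase that switches off ERK and a known capicua target, was the gene whose pattern was most like that of ETV5 below. Each run ends at the base before the start site, reads 5′ to 3′ on the gene's strand, and has the octamer in capitals (in DUSP6 it is TCAATGGA read on the other strand). The runs are chr7:13991426-13991675 and chr12:89352502-89352751.
ETV1: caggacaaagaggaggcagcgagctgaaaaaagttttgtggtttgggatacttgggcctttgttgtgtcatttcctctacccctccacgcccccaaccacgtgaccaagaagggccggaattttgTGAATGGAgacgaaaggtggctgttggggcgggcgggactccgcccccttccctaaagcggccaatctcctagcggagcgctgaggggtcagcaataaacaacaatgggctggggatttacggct
DUSP6: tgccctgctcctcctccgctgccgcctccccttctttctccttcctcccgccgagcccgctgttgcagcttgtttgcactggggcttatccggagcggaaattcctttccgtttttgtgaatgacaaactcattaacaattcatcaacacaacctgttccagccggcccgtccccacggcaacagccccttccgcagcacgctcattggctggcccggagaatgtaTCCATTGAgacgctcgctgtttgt

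In ETV1 the octamer began 125 bases upstream of the start site, and in DUSP6 the one shown began 24 bases upstream, with another just inside the transcript. An octamer was present in 3.77% of the 35116 promoter windows of the table. The GGAA core occurred 4 times in the ETV1 window, but 95.45% of all windows held it at least once, and the longer CGGAAGT, which contains that core, was in 6.83% of windows and in none of the 6 of ETV1. A match is a description of the letters only.

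Sequencing depth was 47016302 to 60985825 counts per library, and the 0 h libraries were the deepest. The identity of the line was visible in all libraries, with 9 of 9 luminal prostate markers detected at a summed level of 4490 to 4900 CPM (counts per 1e6 of the scaled library). Markers of basal cells (at most 0.325 CPM summed over 3 genes) and leukocytes (at most 0.435 CPM over 3 genes) were near 0. Of 6 fibroblast markers 3 reached a mean of 1 CPM, and the list summed to 24.6 to 28.8 CPM, mostly COL1A1. Within it, mean COL3A1 climbed from 0.567 CPM through 1.13 CPM at 12 h to 1.43 CPM at 24 h. Its log2 rises over 0 h were 0.98, then 1.32. Mean LUM climbed from 1.03 CPM to 1.52 CPM by 24 h, which is 0.56 in log2 units. The endothelial list, nearly all of it VWF, fell with time. It summed to 12.7 to 13.7 CPM before NRG1, 8.38 to 9.39 CPM after 12 h and 6.90 to 7.95 CPM after 24 h. PECAM1 had 5 reads, and CDH5 had no entry in the count table. The part of these markers in the results was not tested.

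ETV1 was abundant before NRG1 was added and moved little, whereas ETV4 and ETV5 started close to the detection limit and rose by large factors. At 12 h all 3 genes had risen and at 24 h all 3 were still above 0 h. Between 12 and 24 h the directions parted, with ETV1 falling and ETV4 and ETV5 rising further. A gene was called in edgeR's quasi-likelihood test at a Benjamini-Hochberg adjusted p of at most 0.05 over the 19250 genes with enough counts, and the 1.5-fold threshold of the study is given beside it. All 3 genes had enough counts.

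ETV1 was at 240.6, 248.0 and 248.2 CPM in the 0 h libraries, at 302.7, 305.0 and 300.0 CPM at 12 h, and at 273.5, 278.2 and 277.3 CPM at 24 h. The 3 times did not overlap, and 24 h lay between the others. Means were 245.6 ± 4.37, 302.5 ± 2.51 and 276.3 ± 2.46 CPM (SD, n = 3 each). The log2 fold change at 12 h was 0.30 (standard error 0.03, 95% interval 0.24 to 0.36, edgeR adjusted p = 1.65e-09), which is a rise of 18.03 to 28.59%. At 24 h against 0 h it was 0.17 (standard error 0.03, interval 0.11 to 0.23, edgeR adjusted p = 5.28e-05). The fall from 12 to 24 h was -0.13 (standard error 0.03, interval -0.19 to -0.07, edgeR adjusted p = 0.0054). None of these changes reached 1.5-fold.

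ETV4, the founding PEA3 gene, had only 16, 2 and 11 reads in the 0 h libraries. These became 801, 788 and 681 reads at 12 h and 1158, 1479 and 1237 reads at 24 h. In CPM the 0 h libraries held 0.258, 0.0345 and 0.188, with exact Poisson 95% intervals of 0.147 to 0.419, 0.00418 to 0.125 and 0.0941 to 0.337 that cover counting error only. Replicate 2 was the lowest, and its interval overlapped that of replicate 3. ETV4 reached 14.8, 14.9 and 14.1 CPM at 12 h and 24.7, 27.2 and 23.8 CPM at 24 h, with no overlap between any of the times. The log2 fold change was 6.47 at 12 h (standard error 0.17, 95% interval 6.13 to 6.81, edgeR adjusted p = 3.68e-24) and 7.26 at 24 h (standard error 0.16, interval 6.94 to 7.57, edgeR adjusted p = 1.52e-26). As linear factors these intervals were 70.0 to 112 and 123 to 191. From 12 to 24 h ETV4 rose by a further 0.79 (standard error 0.08, interval 0.63 to 0.95, edgeR adjusted p = 2.5e-08).

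Because the 0 h level of ETV4 rested on so few reads, its factor moved with single 0 h libraries. The 12 h log2 fold change was 6.01 without 0 h replicate 2, the library with 2 reads, and 7.005 without replicate 1, the library with 16. The call was kept in both. ETV4 also overlaps DHX8, an RNA helicase gene on the plus strand, over 68 exon bases or 1.94% of its exon length, and whether reads were counted by strand is not given in the sources used here. DHX8 had between 3349 and 3562 reads at 0 h, between 3124 and 3520 at 12 h and between 2802 and 3444 at 24 h, without the rise seen in ETV4.

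ETV5 had 23, 36 and 19 reads at 0 h, 630, 707 and 543 at 12 h, and 788, 871 and 789 at 24 h. The levels were 0.371, 0.621 and 0.326 CPM, then 11.7, 13.4 and 11.2 CPM, then 16.8, 16.0 and 15.2 CPM. No library of one time overlapped another time, although the highest 12 h and the lowest 24 h library were close. The log2 fold change of ETV5 was 4.78 at 12 h (standard error 0.14, 95% interval 4.50 to 5.07, edgeR adjusted p = 1.9e-24), or a factor of 22.6 to 33.5. At 24 h it was 5.18 (standard error 0.14, interval 4.91 to 5.46, edgeR adjusted p = 3.29e-26). The step from 12 to 24 h was 0.40 (standard error 0.08, interval 0.23 to 0.57, edgeR adjusted p = 0.00208) and was called, but it stayed under 1.5-fold. The overlapping genes DGKG and ETV5-AS1 had 21 and 5 reads in total against 4406 for ETV5.

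**Figure D1:**
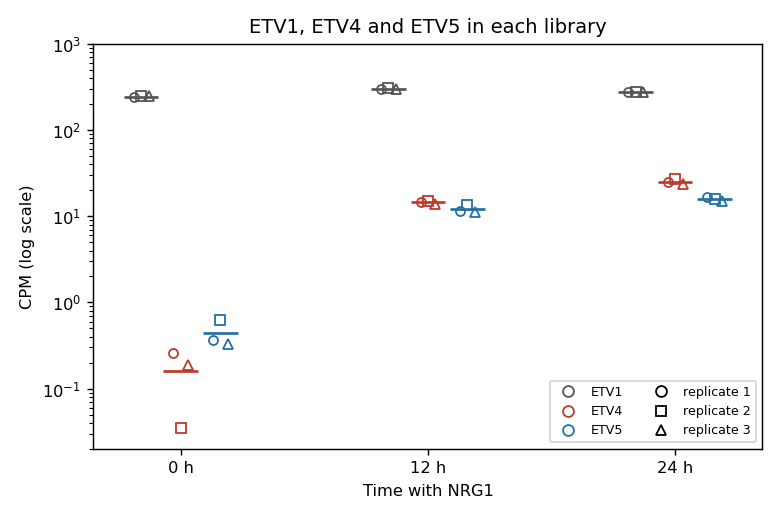
Level of ETV1, ETV4 and ETV5 in CPM (log scale) in each of the 9 libraries by time with NRG1, with a symbol for each replicate and a line at the mean of 3. ETV1 stays between 240.6 and 305.0 CPM, while ETV4 and ETV5 lie below 1 CPM at 0 h and between 11.2 and 27.2 CPM later.

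Read against the whole table, being called higher was a common event and a large rise was a rare one. Of all tested genes 10.6% were called higher and 8.16% lower at 12 h, and 0.992% were higher past 1.5-fold, against 3 of 3 PEA3 genes higher and 2 of 3 past 1.5-fold. At 24 h the shares of all genes were 11.6% higher, 9.48% lower and 1.53% higher past 1.5-fold, with the same counts of 3 and 2 PEA3 genes. From 12 to 24 h, 3.03% of all genes were called higher, 3.05% lower and 0.249% higher past 1.5-fold, beside 2, 1 and 1 of the PEA3 genes. By the size of the fitted log2 fold change ETV4 ranked 1 of 19250 both at 12 h and at 24 h, ETV5 ranked 6 and 4, and ETV1 ranked 4347 and 8079. The ranks of ETV4 and ETV5 rest on 2 to 16 and 19 to 36 reads per library at 0 h. ETV4 would have no rank under a filter of at least 10 counts in every library. The members were chosen with earlier results of these data known, so the ranks and counts are a description only. In bulk RNA, a change in the number of cells that express a gene and a change in RNA per cell cannot be told apart.

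**Figure D2:**
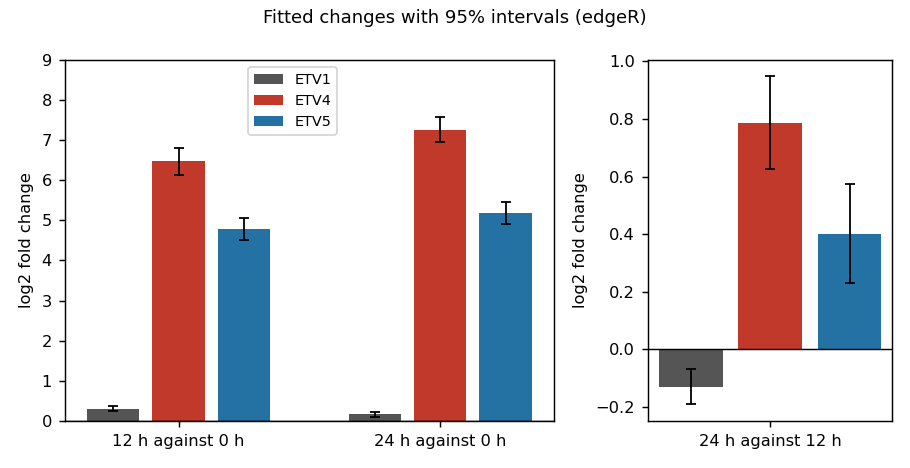
Fitted log2 fold changes (bars) of the 3 genes with 95% intervals from edgeR, for 12 h and 24 h against 0 h on the left and for 24 h against 12 h on a separate scale on the right. ETV4 and ETV5 exceed 4 on the left where ETV1 stays at 0.30 and 0.17, and on the right ETV1 alone lies below 0.

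Levels of different genes were compared per kilobase of exon (union of annotated exons of 9.59 kb for ETV1, 3.52 kb for ETV4 and 5.77 kb for ETV5). On this scale ETV1 was at 25.6 ± 0.455 CPM per kb at 0 h, rank 1628 of 19215 genes with a length, and it stayed near the top of the table, at percentiles of 91.5, 93.3 and 92.5 at the 3 times. ETV4 was at 0.0456 ± 0.0326 CPM per kb at 0 h, 4.16 ± 0.134 at 12 h and 7.17 ± 0.508 at 24 h. That took it from percentile 3.07 to 61 and 71.7. ETV5 was at 0.0761 ± 0.0276, 2.09 ± 0.198 and 2.77 ± 0.143 CPM per kb, at percentiles 6.36, 48.2 and 53.0.

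The order of the paralogs was thus ETV1 far above the others at each time. ETV4 and ETV5 overlapped at 0 h, with 0.00982 to 0.0734 and 0.0564 to 0.108 CPM per kb, and were not separated beyond their spread. At 12 h ETV4 lay above ETV5 in all libraries (4.001 to 4.242 against 1.94 to 2.32 CPM per kb), and at 24 h the distance had grown (6.76 to 7.74 against 2.62 to 2.91).

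Although ETV1 had the smallest relative change, its absolute change was of the same order as that of the others. It gained 5.94 CPM per kb by 12 h (standard error 0.303), ETV4 gained 4.11 (standard error 0.0796) and ETV5 gained 2.02 (standard error 0.115). At 24 h the order differed, with a gain over 0 h of 3.21 for ETV1 (standard error 0.302), 7.13 for ETV4 (0.294) and 2.69 for ETV5 (0.0838). The summed PEA3 level went from 25.7 ± 0.441 CPM per kb before NRG1 to 37.8 ± 0.570 after 12 h and 38.7 ± 0.665 after 24 h. From 12 to 24 h ETV1 lost 2.73 CPM per kb (standard error 0.211) while ETV4 and ETV5 together gained 3.69 (0.372), and the sum changed by 0.960 with a standard error of 0.505. These orders depend on the division by length. In CPM, ETV1 gained 56.9 by 12 h and 30.8 by 24 h, ETV4 14.4 and 25.1, and ETV5 11.7 and 15.6. The sum in CPM fell by 11.7 from 12 to 24 h (standard error 3.03), the direction opposite to that per kb.

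The share of ETV1 in the PEA3 transcript level per kb was 99.5% ± 0.0643 before NRG1, then 83.5% ± 0.566 after 12 h and 74.4% ± 1.07 after 24 h (SD over 3 libraries). It differed by -16.1 percentage points at 12 h and by -25.2 at 24 h from 0 h, and by -9.11 between 12 and 24 h, with no overlap of the libraries. The exact two-sided permutation p was 0.1 for each, the smallest that 3 against 3 libraries allow. ETV4 accounted for 0.178% ± 0.129, 11.0% ± 0.217 and 18.5% ± 0.990 of the summed level, and ETV5 for 0.295% ± 0.105, 5.54% ± 0.442 and 7.15% ± 0.373. Without division by length, ETV1 still had 99.8%, 91.9% and 87.0% of the PEA3 reads, and its share then differed from 0 h by -7.86 and -12.7 points.

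**Figure D3:**
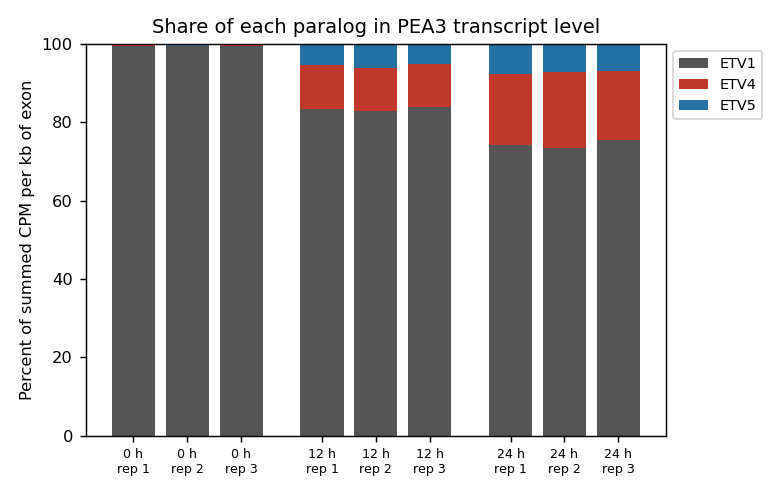
Share of ETV1, ETV4 and ETV5 in their summed CPM per kb of exon, in percent, as stacked bars for each of the 9 libraries. ETV1 fills nearly the whole bar at 0 h and about 74.4% of it at 24 h, with ETV4 the larger of the other two parts at 12 and 24 h.

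Ratios of 2 genes within a library do not depend on its scaling and set the paralogs against each other directly. The count added before taking the log2 weighs where reads are few, as in ETV4 and ETV5 at 0 h. ETV4 was at 0.293%, 0.0380% and 0.207% of the ETV1 level per kb in the 0 h libraries, at 13.4%, 13.3% and 12.8% at 12 h, and at 24.6%, 26.7% and 23.4% at 24 h. On the log2 scale (0.5 counts added) the ETV4 to ETV1 ratio rose by 6.50 at 12 h (standard error 0.822), by 7.41 at 24 h (0.824) and by 0.92 from 12 to 24 h (0.0593). The ETV5 to ETV1 ratio rose by 4.51 (0.284), 5.04 (0.280) and 0.54 (0.0857) over the same steps. The libraries did not overlap in any of these, and the exact permutation p was 0.1, also after adjustment over the 9 ratio comparisons. With 2 counts added, the rises over 0 h were 6.17 and 7.09 for ETV4 to ETV1, and 4.43 and 4.96 for ETV5 to ETV1.

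The induced paralogs differed less from each other. The ETV4 to ETV5 ratio rose by 1.99 on the log2 scale at 12 h with a standard error of 1.08, by 2.37 at 24 h (1.08), and by 0.38 from 12 to 24 h (0.0852), each with an exact permutation p of 0.1. The values at 12 and 24 h leaned on 0 h replicate 2, with its 2 ETV4 reads. Without that library the rises were 0.91 and 1.29, and without 0 h replicate 1 they were 2.59 and 2.97. With all libraries and 2 counts added they were 1.75 and 2.13.

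In the rest of the ETS family no called change reached 1.5-fold. Past that threshold, 0.992% of all genes were called higher at 12 h, 1.53% at 24 h and 0.249% from 12 to 24 h. The absence of such a call among so few genes is near those shares. Of the other 25 ETS genes 19 had enough counts, and 5 were called higher and 3 lower at 12 h, against the table's shares of 10.6% and 8.16%. At 24 h there were 4 higher and 3 lower (11.6% and 9.48% of all genes), and from 12 to 24 h 0 higher and 1 lower (3.03% and 3.05%). ELF5 (-0.75) and FEV (-0.60) at 24 h had larger values and were not called. The median log2 fold changes of 0.003, -0.024 and -0.031 stood beside -0.008, -0.007 and 0.001 for all tested genes. The ternary complex factors ELK3 (0.39 at 12 h, 0.44 at 24 h) and ELK1 (0.17 at 12 h), which act with SRF at serum response elements, rose, and so did ETS2 (0.45 at both times). ELF4 (0.46) and the repressor ERF (0.14) were called higher at 12 h, and ELF3 (0.25) and ELF1 (0.15) at 24 h. ELK4 (-0.22 and -0.20), EHF (-0.19 and -0.27) and SPDEF (-0.12 and -0.29) fell.

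Per kb at 0 h, EHF (110.1 CPM per kb) and SPDEF (53.99) were the only ETS genes above ETV1. ERG, the ETS gene most often rearranged in prostate cancer, had 1 read in all 9 libraries together, and FLI1 and ETV3L had no entry in the count table. Some of the small calls hung on single libraries. ELF4 was not called without 0 h replicate 2 (0.38) or 12 h replicate 1 (0.46), nor ERF without 0 h replicates 1 (0.14) or 3 (0.13) or 12 h replicate 2 (0.13). SPDEF at 12 h was not called without 0 h replicates 2 (-0.10) or 3 (-0.10), 12 h replicates 1 (-0.13) or 3 (-0.07), or 24 h replicate 1 (-0.11). Its fall of -0.17 from 12 to 24 h was not called when 12 h replicates 1 (-0.15) or 2 (-0.14), or 24 h replicates 1 (-0.15) or 3 (-0.15), were left out.

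**Figure D4:**
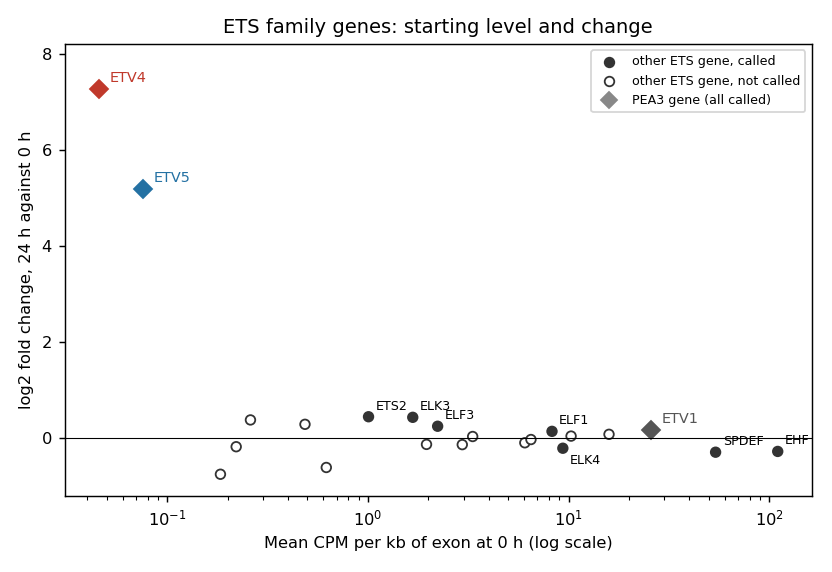
Mean CPM per kb of exon at 0 h (log scale) against the log2 fold change at 24 h for the 3 PEA3 genes (diamonds) and the 19 other ETS genes with enough counts (circles, filled where called). ETV4 and ETV5 sit alone at the upper left, and ETV1 sits at the right between the more abundant SPDEF and EHF and the rest of the family.

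Of the genes that regulate PEA3 genes or proteins, few were called, and 1 of them past 1.5-fold. Of 13 such genes, all with enough counts, 0 were called higher and 3 lower at 12 h (10.6% and 8.16% of all genes), 2 higher and 1 lower at 24 h (11.6% and 9.48%), and 2 higher and 1 lower from 12 to 24 h (3.03% and 3.05%), with medians of -0.10, -0.02 and 0.08. CIC itself changed by 0.04 at 12 h, which was not called, and rose by 0.16 at 24 h. Its partner ATXN1 was at -0.11 at 12 h and rose by 0.25 at 24 h, a difference of 0.37 between the times. COP1, which targets PEA3 proteins for degradation, changed by 0.02 at 12 h, which was not called, and was lower at 24 h by -0.15 against 0 h and by -0.17 against 12 h. DET1, an adaptor of the same ligase, was at -0.89 at 12 h, the call past 1.5-fold, and the acetyltransferase CREBBP fell by 0.27 at 12 h and rose again by 0.18 between 12 and 24 h.

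The ATXN1 fall at 12 h was not called without any 1 of the 0 h libraries (-0.10, -0.12 and -0.12 without replicates 1, 2 and 3) or without 12 h replicates 2 (-0.10) or 3 (-0.10). DET1 lost its call without 0 h replicate 1 (-0.66) and without 12 h replicates 1 (-0.69) or 2 (-0.88). COP1 lost its 24 h call without 24 h replicate 2 (-0.14), and its call between 12 and 24 h when 12 h replicates 1 (-0.15) or 2 (-0.15) or 24 h replicate 2 (-0.16) were dropped. CREBBP lost the call between 12 and 24 h without 12 h replicate 2 (0.13).

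Other genes known to be repressed by CIC moved with ETV4 and ETV5 in direction. Of 8 such genes, 7 were called higher and 0 lower at 12 h, 6 of them past 1.5-fold, and the same counts held at 24 h. Of all genes, 10.6% and 11.6% were called higher at these times, 8.16% and 9.48% lower, and 0.992% and 1.53% higher past 1.5-fold. The medians of the 8 genes were 0.84 and 1.09. SPRY4 (6.13 and 6.32) and DUSP6 (4.25 and 4.67) are feedback inhibitors of receptor tyrosine kinase signaling. SPRY4 lay between ETV5 and ETV4 at both times and DUSP6 a little below ETV5, while SPRED1 (1.00 and 1.20), SPRED2 (0.80 and 0.98), DUSP4 (0.88 and 0.83), SHC3 (0.78 and 1.46) and SPRY2 (0.48 and 0.54) rose less. SPRED3 was at -0.44 and -0.18 and was not called. At 0 h SPRY4 was at 0.0668 ± 0.0579 CPM and DUSP6 at 0.471 ± 0.131 CPM, so their fold changes, like that of ETV4, rest on few reads. From 12 to 24 h only DUSP6 was called (3.03% of all genes were called higher), at 0.42, close to the 0.40 of ETV5. SHC3 at 12 h was not called without 0 h replicate 1 (0.72) or 12 h replicate 1 (0.74). SPRY2 was called at 12 h only narrowly (edgeR adjusted p = 0.0464), and leaving out 1 library lost that call in 7 of 9 such fits, with values from 0.39 to 0.53. Its 24 h call was lost without 0 h replicate 1 (0.45) and without 24 h replicates 1 (0.48) or 2 (0.47). The capicua octamer was in the promoter windows of DUSP6 and in 1 of 2 of SPRED3, and in none of those of SPRY4, SPRED1, SPRED2, SHC3 or SPRY2.

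Of 19 genes described as PEA3 targets in other settings, 11 had enough counts, beside 19250 of the 37351 genes of the whole table. Of the 11, 5 were called higher and 0 lower at 12 h (10.6% and 8.16% of all genes). At 24 h 5 were higher and 1 lower (11.6% and 9.48%), and none was called between 12 and 24 h (3.03% and 3.05%). The medians were 0.26, 0.32 and -0.05. The matrix metalloproteinases MMP7 (3.20 and 3.38, from 0.620 CPM to 5.67 and 6.44 CPM) and MMP10 (1.92 and 1.87) and the chemokine receptor CXCR4 (1.90 and 2.43) rose past 1.5-fold at both times, while CCND1, which encodes cyclin D1, rose by 0.26 and 0.32. CXCR4 started at only 0.151 ± 0.0721 CPM at 0 h, and its 12 h change had no adjusted p in DESeq2. SNAI1, an EMT factor, was at 0.56 and 0.48, and the mesenchymal filament gene VIM was at -0.31 at 24 h. SNAI1 lost its 12 h call without 0 h replicate 2 (0.52) or 12 h replicate 1 (0.46), and its 24 h call without 0 h replicates 1 (0.45) or 2 (0.44) or 24 h replicates 1 (0.44) or 2 (0.46). VIM lost its call without 0 h replicate 3 (-0.25) and without 24 h replicates 1 (-0.29) or 3 (-0.27). MMP1, MMP2 and PTGS2 had 4, 1 and 7 reads in all libraries together, and PLAU had no entry in the count table.

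Of the few genes around both ETV1 positions, 1 was called at 12 h and 1 at 24 h, both lower. Lower calls made up 8.16% and 9.48% of all genes at those times. Counts in so few genes cannot be set apart from those shares. On chromosome 14, 4 of 6 had enough counts, and the sole call was FOXA1, a pioneer factor of luminal prostate cells, at -0.09 at 12 h (559.9 CPM at 0 h, 527.2 at 12 h and 530.7 at 24 h, edgeR adjusted p = 0.035). That call did not survive leaving out 1 library in 8 of 9 such fits, with values from -0.10 to -0.07. MIPOL1, the gene that holds the inserted ETV1, was at 51.4, 52.9 and 55.0 CPM and changed by 0.04 at 12 h and 0.10 at 24 h, neither called. On chromosome 7, 3 of 6 neighbours had enough counts. DGKB, the nearest listed, changed by 0.02 and -0.05, neither called, and SCIN was at -0.87 at 24 h, a call lost without 0 h replicate 3 (-0.73) or 24 h replicate 3 (-0.74). The rise of ETV1 by 0.30 and 0.17 was thus larger than the changes of MIPOL1 or FOXA1 at the same times, but a difference between those genes was not tested. SLC25A21, of the same chromosome 14 list, was at 0.34 at 12 h and 0.06 at 24 h, neither called.

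As a description with no test, the genes most like each member were ranked by Pearson's r of log2 CPM over the 9 libraries, among the 11400 tested genes whose mean log2 CPM was 2 or more. Every gene shares the same libraries and times. For ETV1 these were NAMPT (0.992), GNL2 (0.992), SUPT16H (0.984), CENPN (0.982) and SQLE (0.982), each with its peak at 12 h. For ETV4 they were MCL1 (0.994), FOS (0.993), LOXL1 (0.992), BCL2 (0.991) and LOX (0.991), and for ETV5 DUSP6 (0.999), NTPCR (0.998), EGR1 (0.996), MFSD2A (0.996) and MAFF (0.994). Likeness in shape did not require likeness in size. MCL1, an anti-apoptotic gene, had log2 fold changes of 0.32 and 0.36 where ETV4 had 6.47 and 7.26, and SQLE, an enzyme of sterol synthesis, was at 177.3, 233.8 and 202.3 CPM and changed by 0.40 and 0.19. Of the genes most like ETV5, EGR1 (5.02 and 5.07) was nearest to its 4.78 and 5.18 in fold change, and DUSP6 in level, at 0.471, 9.01 and 12.1 CPM.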

How the data were processed

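Per the study's methods, paired-end reads of mRNA libraries were stripped of adapters by Cutadapt, mapped to GRCh38 by STAR with a GENCODE annotation and assigned to genes by featureCounts. The authors deposited whole-number counts, 1 column per library, without normalization. Strand setting and multi-mapped reads are not given in the sources used here. The study's methods mention that 1 LNCaP replicate at time 0 was left out, without naming its treatment. Its captions give n = 3 for NRG1 and fewer in places for ASPN, the other ligand of the study, so all 3 of the 0 h libraries were kept, and each was left out in turn.

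Groups and replicate numbers came from the sample titles. Counts were filtered with filterByExpr (19250 genes), scaled by TMM (trimmed mean of M values) and tested in R 4.3.3 by edgeR 4.0.16, with all 9 libraries in 1 robust quasi-likelihood model without covariates, and P values were adjusted by Benjamini and Hochberg. The common biological coefficient of variation was 4.07%. Standard errors and intervals of fold changes were derived from the fold change and the F statistic of the test. Depth of 47016302 to 60985825 counts per library sets the counting error. Exon lengths came from GENCODE v44 of the same build, a later release than the study's. Of gene IDs 99.8% matched, and 91.7% of those had the same coordinates. Promoters came from RefSeq, which had entries for ETV1 but for neither ETV4 nor ETV5. Methods were tested on simulated data.

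Named genes are the members, the called genes of each list with those needed to read it, and the 5 genes most like each member. Members and lists were chosen with earlier results of these data known. Genes named for few reads or for no entry, single marker genes and DUSP6 as a printed sequence were chosen after values were seen. Alternatives were DESeq2 1.42.0, median-of-ratios and no scaling, other low-count filters, no mitochondrially encoded genes, the 6 compared libraries only, the replicate number as a block, 2 counts added in ratios, no division by length, and each library left out. Canonical transcript lengths were added after seeing the data.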

Additional observations from a re-analysis of the deposited data

Results flagged for a closer look

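Values are listed here where the direct edgeR test of 24 h against 12 h was passed, so that the effects of the 2 times against 0 h differed. For the members, ETV1 was lower at 24 h (log2 fold change -0.13), and ETV4 (0.79) and ETV5 (0.40) were higher. Among genes of the lists, ATXN1 (0.37), CREBBP (0.18) and the capicua target DUSP6 (0.42) were higher, and COP1 (-0.17) and SPDEF (-0.17) were lower. Of these, COP1, CREBBP and SPDEF lost the call without single libraries, as given above. The groups have 3 libraries each, so no search for outlying samples was made.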

How the results depend on the processing

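All 150 alternative values of the 9 member fold changes kept their direction and their call. Without 1 library at a time, ETV4 ranged from 6.01 to 7.005 at 12 h against 0 h, from 6.80 to 7.79 at 24 h against 0 h and from 0.73 to 0.83 between them, ETV5 from 4.61 to 5.11, 5.02 to 5.51 and 0.35 to 0.48, and ETV1 from 0.29 to 0.31, 0.16 to 0.18 and -0.14 to -0.12. The highest adjusted p over the alternatives (edgeR or DESeq2) was 0.0382 for ETV1 and 0.0307 for ETV5 between 12 and 24 h. ETV4 has no value under the filter of at least 10 counts in every library, since 1 library had 2. The share of ETV1 fell in every alternative, with canonical transcript lengths giving 99.5%, 83.6% and 74.4%. The number of genes called between 12 and 24 h, 1171, ranged from 685 to 1449 without 1 library, and moved by over 1.5 times when 12 h replicates 1 (776) or 2 (685) or 24 h replicate 3 (757) was left out; the cause was not tested. Of 53 calls on named list genes, 17 were lost in some alternative, those of ATXN1, SPDEF and SPRY2 at 12 h and of SNAI1 and VIM at 24 h with DESeq2 too, that of SPRY2 at 12 h also with the replicate block (adjusted p = 0.0525), without a scaling factor (0.0522) and without the low-count filter (0.0689), and those of FOXA1 at 12 h and SNAI1 at 24 h without that filter, and 8 values that were not called passed in some alternative. CXCR4 at 12 h had no adjusted p in DESeq2, so that setting made no call on it, and it is not among the lost calls. Deviations of libraries with the same replicate number correlated at -0.0367 to 0.0295, so the numbers were not taken as pairs, and the fit with a replicate block gave ETV1 0.30, ETV4 6.47 and ETV5 4.78 at 12 h. Depth limits the 0 h levels of ETV4 and ETV5.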
